A study of Mus musculus with 28 samples.

Results

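Loss of the type I interferon receptor was examined in cells that already lacked RelB, by setting 3 libraries of IFNAR;RelBko dendritic cells against 3 libraries of RelBko dendritic cells at 1, 3 and 8 h after CpG DNA. These 6 libraries come from a series of 28, and the comparison was described over 9564 autosomal genes with a mean of at least 5 CPM (a gene's read count as a share of its library's reads, scaled up to a fixed total) in the 6 libraries, out of 24995 named genes. The cells were bone marrow cells of C57BL/6 mice grown into dendritic cells with GM-CSF and IL-4, and the stimulus was ODN 1668, a synthetic CpG DNA, at 0.1 µM. The RelBko group carries a knockout of RelB, the IFNAR;RelBko group carries that knockout and a knockout of IFNAR, and both groups therefore share the RelB knockout. The other genotypes, WT and IFNAR, and each genotype's control library at 1 h are used here where a test needs them. Libraries of all genotypes stimulated with Poly(I:C) at the same times serve in a further test, and its dose is not reported here. The labels give no age, no sex, no design of either knockout allele and no statement on whether libraries came from separate mice or cultures.

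CpG DNA is sensed by TLR9, an endosomal receptor that signals through MyD88 to NF-kB and interferon regulatory factors. Type I interferons made by the stimulated cell bind IFNAR, a receptor of the chains IFNAR1 and IFNAR2, and the kinases JAK1 and TYK2 then activate a complex that holds STAT2 and IRF9 and drives interferon-stimulated genes. RelB is an NF-kB subunit best known for the non-canonical pathway and for dendritic cell maturation.

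Each genotype had 1 library per time point, so the time points served as the repeats. The exact permutation test of a single gene over 3 pairs cannot go below p = 0.25 (two-sided), and tests were therefore run with limma across all genes and the 12 CpG libraries, with genotype and time as terms. The p-values measure the spread between single libraries over time and not between animals. The 6 libraries held between 3814916 and 9654444 reads, and the IFNAR;RelBko library at 8 h was the shallowest of them. The RelBko and IFNAR;RelBko cells also differed in transcripts of the sex chromosomes. Xist, expressed from the inactive X chromosome, was at 0 to 0.599 CPM in the 4 RelBko libraries of the CpG sheet and at 713 to 904 CPM in the 4 IFNAR;RelBko libraries. The genes Ddx3y, Eif2s3y, Kdm5d and Uty of the Y chromosome summed to 239 to 272 CPM and to 0 to 0.176 CPM in the same libraries. Genes of chromosomes X and Y were left out, and this difference and the loss of the receptor cannot be told apart within this pair of genotypes.

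The transcripts of the targeted genes were still counted. Ifnar1, which encodes a chain of the receptor, was at 126, 116 and 149 CPM in RelBko cells at 1, 3 and 8 h and at 97.8, 58.1 and 69.2 CPM in IFNAR;RelBko cells. The 3 IFNAR;RelBko values lay below the 3 RelBko values, and the mean difference was -0.81 ± 0.13 (SE, adjusted p = 7.07e-04) on the log2(CPM + 1) scale. All differences below are on that scale, as IFNAR;RelBko minus RelBko, and where levels of both groups are set against each other those of RelBko come first. Relb was at 69.2, 151 and 156 CPM in RelBko cells and at 96.4, 188 and 209 CPM in IFNAR;RelBko cells in the same order of times, so both carried the transcript. The deleted parts of the genes are not given in the sources used here, and transcript levels of whole genes do not check the labels. The culture label was checked against its markers: Itgax, which encodes CD11c, was at 915, 879 and 658 CPM in RelBko and 905, 799 and 689 CPM in IFNAR;RelBko cells, and Cd209a was at 0 CPM at all 3 CpG times in both.

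Of the 9564 genes tested, 3459 (36.2%) differed between IFNAR;RelBko and RelBko at an adjusted p under 0.05. Of these, 2618 (27.4% of the genes tested) were higher and 841 (8.79%) were lower in IFNAR;RelBko cells. Counts of called genes in the lists below are to be read against these shares, also where they are not repeated. List counts given for median-ratio scaling are to be read against that scaling's own counts over all genes, given next. The split depends on scaling: the median difference over all genes was 0.17 with scaling by library totals and -0.01 with median-ratio scaling, which called 1081 genes higher and 1475 lower. With TMM scaling, a trimmed mean of ratios, 1175 were called higher and 1297 lower, and with quantile normalisation 1614 and 1226. Called with the same sign by totals and by median-ratio scaling were 1081 higher and 838 lower genes. Past 1 log2 unit there were 207 called genes lower and 342 higher, and past 3 log2 units 32 lower and 6 higher. Every IFNAR;RelBko value lay above every RelBko value in 23.7% of the genes tested and below in 5.69%. Without the 3 h libraries 1041 genes were called, without the IFNAR;RelBko 8 h library 2293, and with no time term 641.

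Of the 15 largest decreases, 12 belonged to interferon-stimulated genes, most of them antiviral effectors. Rsad2, which encodes viperin, an enzyme that makes a chain-terminating nucleotide, was at 32.9, 279 and 559 CPM in RelBko cells at 1, 3 and 8 h. In IFNAR;RelBko cells it was at 5.28, 2.12 and 1.05 CPM. The RelBko level was higher at each later time while the IFNAR;RelBko level stayed low, and the groups did not overlap. The mean difference was -5.67 ± 1.29 (SE, adjusted p = 0.0170).

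Ifit1, an RNA-binding inhibitor of viral translation, was at 15.7, 175 and 312 CPM in RelBko and 2.28, 0.882 and 4.72 CPM in IFNAR;RelBko cells, a difference of -4.89 ± 1.18 (SE, adjusted p = 0.0212). Its relative Ifit2 was at 18.9, 198 and 389.9 CPM against 5.90, 1.76 and 5.77 CPM, with -4.52 ± 1.39 (SE, adjusted p = 0.0463), and this call was lost with a pseudocount of 5 and under TMM or median-ratio scaling. Both genes were several-fold higher at 3 h than at 1 h in RelBko cells and lower at 3 h than at 1 h in IFNAR;RelBko cells, and the groups overlapped for neither. Rtp4, an interferon-induced protein that inhibits flavivirus replication, was at 17.1, 54.2 and 75.1 CPM against 1.35, 0.706 and 0 CPM, with -4.74 ± 0.74 (SE, adjusted p = 0.00348). Ifi27l2a, a small interferon-induced protein, was at 67.5, 71.9 and 111 CPM in RelBko and 2.38, 0.706 and 2.36 CPM in IFNAR;RelBko cells, with -4.94 ± 0.34 (SE, adjusted p = 1.77e-05). The genotypes were apart in the control libraries for these genes too, where RelBko and IFNAR;RelBko cells had 32.6 and 3.10 CPM of Rsad2, 14.3 and 1.40 CPM of Ifit1 and 17.8 and 5.21 CPM of Ifit2. In the same controls Rtp4 was at 14.3 and 0.901 CPM and Ifi27l2a at 77.5 and 2.10 CPM.

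The 2'-5' oligoadenylate synthetases, which make the activator of RNase L when they bind double-stranded RNA, made up 4 of the 15 largest decreases (Oas3, Oas2, Oas1a and Oas1g), and the related Oasl1 was a further one. Oas3 was at 67.7, 122 and 503 CPM in RelBko and 5.90, 5.12 and 3.67 CPM in IFNAR;RelBko cells, with -4.80 ± 0.93 (SE, adjusted p = 0.00937). Oas1a was at 27.2, 38.6 and 136 CPM against 1.66, 1.41 and 1.83 CPM, with -4.34 ± 0.49 (SE, adjusted p = 5.18e-04). Oas2 was at 8.04, 27.4 and 55.6 CPM against 0.207, 0.353 and 0 CPM, with -4.37 ± 0.74 (SE, adjusted p = 0.00372). In all 3 the lowest RelBko value lay above the highest IFNAR;RelBko value. Oasl1, which represses translation of Irf7, was at 83.3, 231 and 337 CPM against 14.7, 5.12 and 9.44 CPM, with -4.23 ± 0.70 (SE, adjusted p = 0.00504). Oas1g had 366 reads over the 3 RelBko libraries and 1 read over the 3 IFNAR;RelBko libraries, a ratio of 336 with a 95% interval of 59.9 to 13304 that covers counting error only. Oas1a, Oas1g, Oas2 and Oas3 lie together on chromosome 5, and reads of near-identical copies such as Oas1a and Oas1g may have been split or lost in counting.

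**Figure D1:**
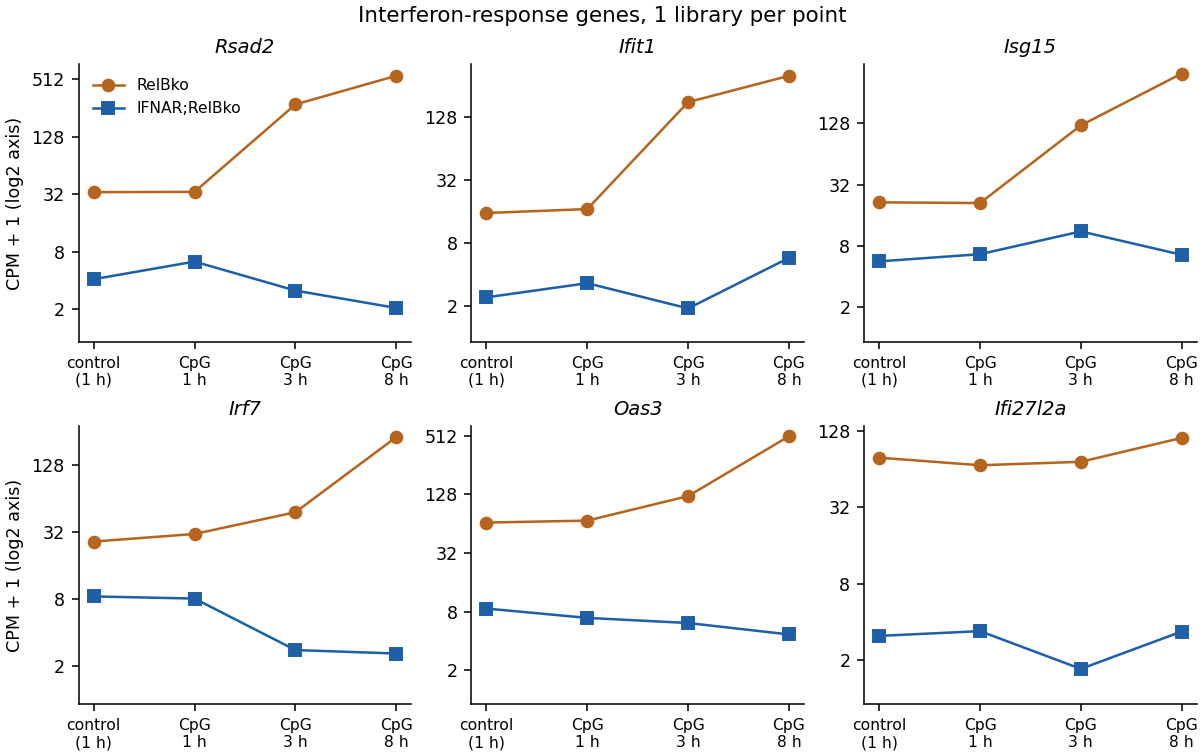
Levels of 6 interferon-response genes (vertical axes, CPM + 1 on a log2 axis) in the control library and at 1, 3 and 8 h after CpG (horizontal axes), with 1 library per point, RelBko as circles and IFNAR;RelBko as squares. Rsad2 reached 559 CPM at 8 h in RelBko cells and was at 1.05 CPM in IFNAR;RelBko cells, and the genotypes were apart in the controls as well, with Rsad2 at 32.6 and 3.10 CPM and Ifi27l2a at 77.5 and 2.10 CPM.

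The list of antiviral effectors had 91 genes in the sheet, of which 83 were tested. IFNAR;RelBko cells were lower for 39 and higher for 1 of the 83 (background 8.79% lower and 27.4% higher), and the list's median difference was -1.33 against 0.17 for all genes. The 1 higher gene was Apobec3, which edits viral DNA, at 123, 157 and 227 CPM in RelBko and 197, 204 and 257 CPM in IFNAR;RelBko cells (0.41, adjusted p = 0.0191). Its call was lost with median-ratio or TMM scaling and without the 1 h or the 3 h libraries. Ifi44, an interferon-induced protein, had 512 reads over the 3 RelBko libraries and 0 over the 3 IFNAR;RelBko libraries, at least 157-fold less against a floor of 3 reads over the group. Of the 83, 24 had a mean under 5 CPM in IFNAR;RelBko cells and were tested because of their RelBko level. Among the 59 at 5 CPM in both groups, 20 were lower and 1 was higher. Some well-counted members were apart at every time. Ifitm3, which blocks viral entry from endosomes, was at 120.1, 118 and 215 CPM against 57.1, 52.6 and 59.2 CPM, with -1.35 ± 0.17 (SE, adjusted p = 1.60e-04). Slfn2, a schlafen protein that protects transfer RNAs, was at 581, 909 and 801 CPM against 308, 473 and 382 CPM, with -0.97 ± 0.08 (SE, adjusted p = 5.51e-06). Ly6a, the surface antigen Sca-1, was at 114, 116 and 141 CPM against 24.0, 18.2 and 20.7 CPM, with -2.50 ± 0.18 (SE, adjusted p = 7.10e-06). Of the 15 largest decreases, those of Rsad2, Ifit1, Oas3, Rtp4, Ifit2, Oas2, Oasl1, Irf7 and Mnda were not called without the 3 h libraries, those of Rsad2, Ifit1, Ifit2 and Oasl1 not without the 8 h libraries, and those of Rsad2, Ifit1, Ifit2 and Irf7 not without the IFNAR;RelBko 8 h library. With the 6 libraries of the 2 genotypes alone in the fit, the calls of Rsad2, Ifit1, Oas3, Ifit2, Oasl1 and Irf7, 6 of the 15, were lost. No direction changed in these fits.

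Promoters of antiviral genes often carry an interferon-stimulated response element, whose core is a pair of GAAA blocks. The motif GAAANNGAAA, read on either strand (TTTCNNTTTC on the other), was searched in the 250 bases before each RefSeq start (GRCm38.p6). Overlapping matches were counted separately. It was found in 3.46% of the 27025 genes of the promoter table and in 3.50% of the 7368 tested genes that matched it. Of the 841 genes lower in IFNAR;RelBko, 631 matched and 7.13% held the motif, against 2.50% of the 2039 matched genes that were higher. Of the 70 matched antiviral and ISG15 list members, 25 (35.7%) held it. Members with no match in the promoter table, Ifi27l2a among them, were not searched. The sequences below are those of the 4 matched antiviral or ISG15 list members with the largest decreases whose window held the motif. Also given is Ifit2, the matched member with the largest decrease whose windows held none. These sequences are shown so that the motif can be seen beside the level of each gene. Matches are in capitals, and each sequence runs 5′ to 3′ on the gene's own strand, ending 1 base before the start.
Rsad2, chr12:26456453-26456702, minus strand: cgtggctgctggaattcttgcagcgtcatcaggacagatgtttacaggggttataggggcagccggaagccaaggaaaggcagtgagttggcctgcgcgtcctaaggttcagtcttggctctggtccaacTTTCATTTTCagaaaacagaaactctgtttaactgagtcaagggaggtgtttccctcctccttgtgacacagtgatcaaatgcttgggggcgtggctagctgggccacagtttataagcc
Ifit1, chr19:34640639-34640888, plus strand: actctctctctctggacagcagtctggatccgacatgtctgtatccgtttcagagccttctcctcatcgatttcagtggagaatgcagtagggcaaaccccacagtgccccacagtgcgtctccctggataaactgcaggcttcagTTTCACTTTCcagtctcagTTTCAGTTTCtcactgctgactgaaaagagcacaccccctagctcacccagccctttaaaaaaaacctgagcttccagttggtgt
Oas3, chr5:120777660-120777909, minus strand: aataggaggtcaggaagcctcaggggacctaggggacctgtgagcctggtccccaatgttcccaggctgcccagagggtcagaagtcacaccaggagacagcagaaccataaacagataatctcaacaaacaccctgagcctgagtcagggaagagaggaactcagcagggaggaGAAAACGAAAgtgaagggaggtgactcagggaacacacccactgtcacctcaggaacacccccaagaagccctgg
Oas1a, chr5:120907526-120907775, minus strand: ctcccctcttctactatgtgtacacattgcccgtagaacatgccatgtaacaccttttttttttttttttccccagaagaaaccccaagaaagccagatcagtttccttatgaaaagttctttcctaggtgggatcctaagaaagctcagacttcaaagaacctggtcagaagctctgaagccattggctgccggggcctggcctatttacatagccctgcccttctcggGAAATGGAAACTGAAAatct
Ifit2, chr19:34550444-34550693, plus strand: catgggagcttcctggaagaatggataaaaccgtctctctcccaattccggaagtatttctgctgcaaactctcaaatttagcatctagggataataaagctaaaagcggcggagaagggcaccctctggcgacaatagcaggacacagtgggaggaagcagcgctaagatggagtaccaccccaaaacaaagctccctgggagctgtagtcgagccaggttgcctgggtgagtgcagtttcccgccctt
The match in Rsad2 began 120 bases before the start and that in Oas3 began 75 bases before it. Ifit1 held 2 matches and Oas1a held 2 that overlapped. RefSeq gives Ifit2 a pair of starts and the first is shown. The absence of these letters from a window says nothing of the factor.

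Interferons, their receptors and the kinases below them were next examined. Of 10 interferon genes in the sheet none reached a mean of 5 CPM in the 6 libraries, and their summed level was 2.40 to 5.72 CPM over the RelBko and 1.59 to 4.25 CPM over the IFNAR;RelBko CpG libraries. Only Ifnb1 and Ifng had a read in these RelBko libraries, and only Ifng and Ifnl3 in these IFNAR;RelBko libraries. Neither Ifng nor Ifnl3 encodes a type I interferon. Ifnb1, which encodes interferon-beta, was at 0.816, 1.97 and 0.899 CPM in RelBko cells, 24 reads in all, and at 0 CPM in the IFNAR;RelBko cells at all 3 times. Against a floor of 3 reads over the IFNAR;RelBko group, Ifnb1 was at least 7.34-fold lower. Of 21 tested genes for receptors and proximal signalling, 5 were lower and 2 higher (8 lower and 1 higher with median-ratio scaling), with a list median of -0.16. Ifnar2, the other receptor chain, was at 43.1, 42.7 and 51.4 CPM against 40.5, 38.3 and 43.3 CPM and did not pass the test (difference -0.16, adjusted p = 0.175). Tyk2, a kinase bound to IFNAR1, was at 168, 193 and 302 CPM against 222, 266 and 356 CPM (0.37, adjusted p = 0.00436), a call that was lost with median-ratio or TMM scaling and without the 3 h libraries. Socs2, a feedback inhibitor of cytokine receptors, was at 262, 239 and 290.3 CPM against 426, 383 and 415 CPM (0.63, adjusted p = 5.24e-04), and every IFNAR;RelBko value lay above every RelBko value.

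Among 19 transcription factors of the IRF and STAT families, 4 were lower and 2 higher (7 lower and 0 higher with median-ratio scaling). At 5 CPM in both groups were 18 of the 19, 3 lower and 2 higher, and Irf7 was not among them. Irf7, the interferon-induced factor that amplifies interferon-alpha genes, was at 29.7, 47.2 and 228 CPM in RelBko and 7.04, 1.76 and 1.57 CPM in IFNAR;RelBko cells, with -4.18 ± 0.99 (SE, adjusted p = 0.0193). Its level multiplied between 1 and 8 h in RelBko cells and declined over the same hours in IFNAR;RelBko cells. Irf9, the DNA-binding part of the complex below the receptor, was at 99.6, 153 and 165 CPM against 103, 88.6 and 87.6 CPM, with -0.55 ± 0.18 (SE, adjusted p = 0.0342). The 2 genotypes were level at 1 h and apart later. Without the 3 h or the 8 h libraries, or the IFNAR;RelBko 8 h library, the call of Irf9 was lost. Stat2, its partner, was at 137, 343 and 696 CPM against 123, 116 and 87.8 CPM. The groups did not overlap, but the difference of -1.56 ± 0.58 (SE, adjusted p = 0.0785) did not pass. Tlr9, the receptor of the stimulus, was at 54.2, 47.9 and 60.7 CPM against 61.1, 46.6 and 67.4 CPM (0.09, adjusted p = 0.539).

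Other interferon-induced families held genes that were lower as well. Of 6 genes of ISG15 conjugation, which attaches the ubiquitin-like protein ISG15 to targets, 4 were lower and 0 higher. Isg15 itself was at 20.0, 122 and 396 CPM in RelBko and 5.59, 10.1 and 5.50 CPM in IFNAR;RelBko cells, with -3.69 ± 0.91 (SE, adjusted p = 0.0226). Usp18, the ISG15 protease and an inhibitor of the receptor, was at 13.3, 88.5 and 217 CPM against 3.21, 5.82 and 6.03 CPM, with -3.48 ± 0.77 (SE, adjusted p = 0.0152). The groups overlapped for neither. The calls of both were lost without the 3 h libraries and without the IFNAR;RelBko 8 h library, and that of Usp18 also without the 8 h libraries. Of 24 nucleic acid sensors and adaptors, 11 were lower and 2 higher, with a median of -0.46. At 5 CPM in both groups were 22 of the 24, 9 lower and 2 higher, and Mnda was not among them. The PYHIN proteins, a family of DNA-binding interferon-induced genes clustered on chromosome 1, were among the lower members. Mnda was at 16.1, 52.7 and 101 CPM against 1.55, 3.18 and 2.10 CPM (-3.82, adjusted p = 0.00226). Pyhin1 was at 17.9, 60.1 and 156 CPM against 3.73, 4.76 and 7.08 CPM (-3.23, adjusted p = 0.00416). Both calls were lost without the 3 h libraries. Mavs, the adaptor of cytosolic RNA sensors, was at 33.6, 22.2 and 26.7 CPM against 49.4, 44.3 and 41.7 CPM (0.71, adjusted p = 5.82e-04), and was among the higher members.

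Of 17 guanylate-binding proteins and immunity-related GTPases, which attack vacuoles that hold pathogens, 9 were lower and 0 higher, with a median of -0.91. At 5 CPM in both groups were 16 of the 17, 8 lower and 0 higher. Iigp1 was at 66.1, 156 and 87.9 CPM in RelBko and 11.4, 6.88 and 7.08 CPM in IFNAR;RelBko cells, with -3.40 ± 0.41 (SE, adjusted p = 0.00104). Gbp4 was at 97.7, 269 and 195 CPM against 46.5, 30.7 and 21.0 CPM, with -2.43 ± 0.45 (SE, adjusted p = 0.00746). RelBko cells had more of both at 3 h than at 1 h, and IFNAR;RelBko cells had less of both at 3 and 8 h than at 1 h. The call of Gbp4 was lost without the 3 h or the 8 h libraries. Members of these families share sequence, and reads of close copies are uncertain.

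**Figure D2:**
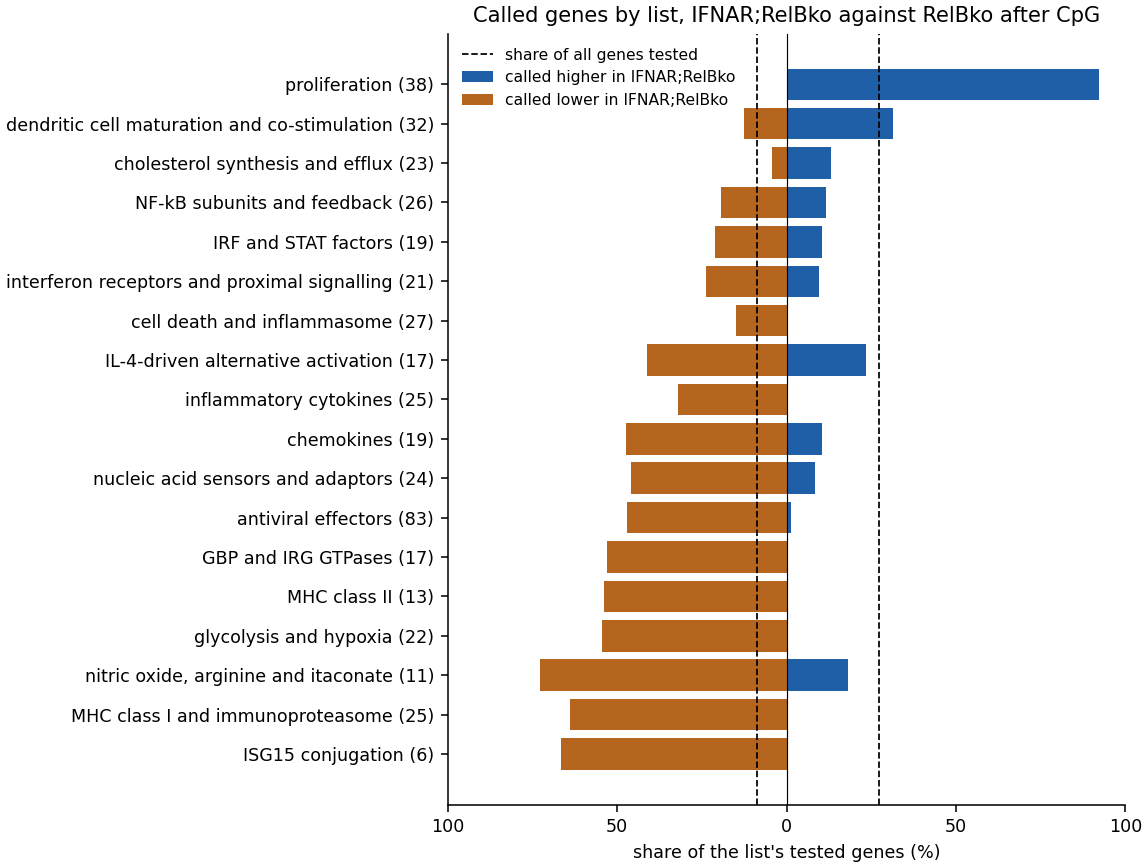
Share of the tested genes of each list (number in brackets) called higher (right) or lower (left) in IFNAR;RelBko than in RelBko cells after CpG, in percent, with dashed lines at the shares of all 9564 genes tested. All lists but those of cholesterol synthesis and efflux (4.35%) and proliferation (0%) extend to the left of the 8.79% line. The lists of proliferation (92.1%) and dendritic cell maturation (31.25%) extend to the right of the 27.4% line.

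The genotypes already differed before CpG, and a further test asked which differences were larger at 3 and 8 h than in the control and at 1 h. It called 252 genes (2.63% of those tested), 127 higher (1.33%) and 125 lower (1.31%) in the late difference. Of the 83 antiviral effectors tested, 17 were called lower late and 0 higher, with a median late change of -1.11 against 0.07 for all genes. Of the 17 GTPases, 9 were called lower late and 0 higher. The median difference of the antiviral list was -0.48 in the control, -0.52 at 1 h, -1.22 at 3 h and -2.00 at 8 h. Cmpk2, a mitochondrial nucleotide kinase next to Rsad2, had the largest late change, with 14.0, 101 and 178 CPM in RelBko and 8.49, 1.59 and 2.36 CPM in IFNAR;RelBko cells at 1, 3 and 8 h. Its late change was -4.89 ± 0.79 (SE, adjusted p = 0.0316), while its mean difference over the 3 times did not pass (adjusted p = 0.0773). Mx2, a dynamin-like antiviral GTPase, was at 3.50, 36.1 and 49.4 CPM against 0.829, 0.353 and 0.786 CPM, with a late change of -3.68 ± 0.30 (SE, adjusted p = 5.34e-06).

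Among the largest late changes upward were genes whose level was lower at 3 and 8 h than at 1 h in RelBko cells. Ffar2, a receptor for short-chain fatty acids, was at 9.32, 1.97 and 0.449 CPM in RelBko and 8.60, 9.0 and 5.50 CPM in IFNAR;RelBko cells, a late change of 2.12 ± 0.29 (SE, adjusted p = 0.00141). E2f2, a cell-cycle transcription factor, was at 67.2, 11.1 and 4.94 CPM against 57.0, 20.5 and 17.3 CPM, a late change of 1.37 ± 0.21 (SE, adjusted p = 0.00337). Cnr2, a cannabinoid receptor, was at 39.9, 6.97 and 11.4 CPM against 33.6, 16.4 and 29.4 CPM, a late change of 1.35 ± 0.19 (SE, adjusted p = 0.00143). All 3 groups of values overlapped, since the genotypes were close at 1 h and apart at 3 and 8 h. The number of late changes depended on the libraries: 8 genes were called without the 1 h libraries, 2233 without the 3 h libraries, 978 without the 8 h libraries and 119 without the IFNAR;RelBko 8 h library. Of the 16 genes named for this test, 14 lost their call without the 1 h libraries, with Mx2 and Gm12250 the exceptions, and Rsad2, Ifit2, Cmpk2, Ifi205, Ccnb2 and I830077J02Rik lost it without the IFNAR;RelBko 8 h library. With voom on the recovered reads Rsad2, Ifit1, Ifit2, Gm4951, Ifi205 and Ccnb2 lost it, and with the 2 genotypes alone Ifi205, Ccnb2, I830077J02Rik and E2f2 did.

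**Figure D3:**
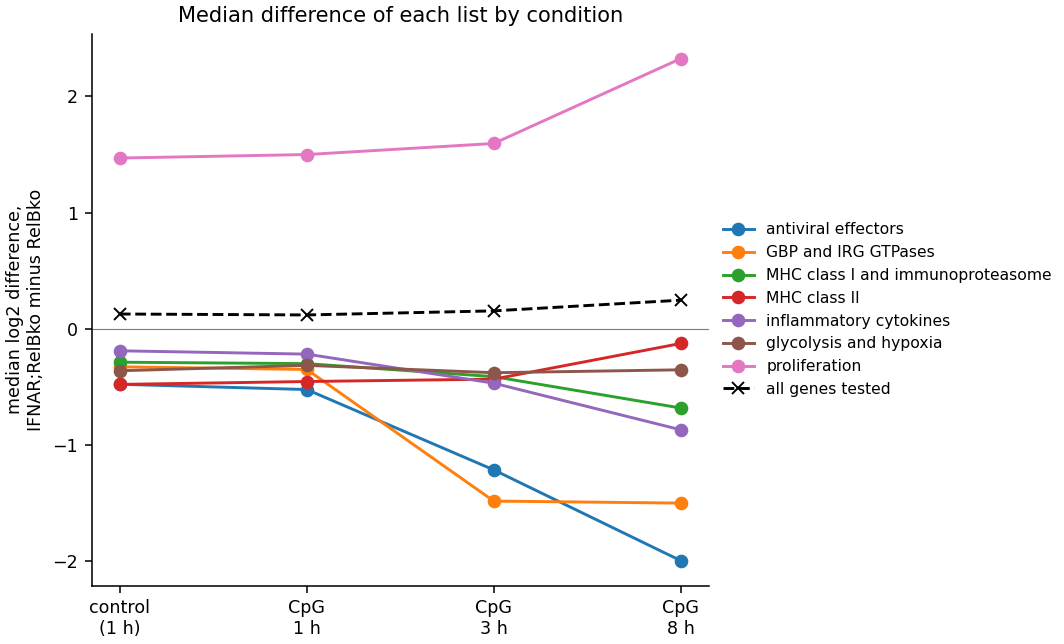
Median log2 difference between IFNAR;RelBko and RelBko libraries over the tested genes of 7 lists and over all genes (vertical axis) in the control and at 1, 3 and 8 h after CpG (horizontal axis), with 1 library per genotype and condition. The antiviral median moved from -0.48 in the control to -2.00 at 8 h, and the proliferation median was at 1.47 in the control.

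Antigen presentation genes were lower in part, and part of the difference was already there in the controls. Of 25 tested genes of MHC class I and the immunoproteasome, 16 were lower and 0 higher (background 8.79% lower and 27.4% higher). The list's median difference was -0.56. By condition it was -0.29 in the control, -0.30 at 1 h, -0.41 at 3 h and -0.68 at 8 h. None of the list's genes was called in the late test, which called 2.63% of all genes. H2-Q4 differed by -0.64 in the control and by -1.39 at 8 h. B2m, the light chain of class I molecules, was at 2906, 3021 and 3285 CPM in RelBko and 1762, 1702 and 1719 CPM in IFNAR;RelBko cells, with -0.83 ± 0.07 (SE, adjusted p = 7.15e-06). H2-K1, a classical heavy chain, was at 2414, 2399 and 3036 CPM against 1437, 1609 and 1831 CPM, with -0.68 ± 0.08 (SE, adjusted p = 4.30e-05). The non-classical H2-Q7 was at 200.3, 264 and 281 CPM against 55.9, 76.4 and 80.5 CPM, with -1.79 ± 0.09 (SE, adjusted p = 8.76e-08). All 3 were apart by a similar amount in the control libraries, where the differences were -0.74, -0.70 and -1.68 in that order. The H2-Q genes are near-identical, so single members are uncertain. Of 13 genes of MHC class II, 7 were lower and 0 higher. H2-Aa, a chain of I-A, was at 2321, 2074 and 2091 CPM against 1383, 1310.2 and 1468 CPM (-0.64, adjusted p = 2.64e-04).

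Inflammatory cytokines reached lower levels in IFNAR;RelBko cells for part of the list. Of 25 tested, 8 were lower and 0 higher (background 8.79% lower and 27.4% higher). The list's median difference was -0.36, and 11 were lower with median-ratio scaling. Tnf was at 362, 568 and 420.2 CPM in RelBko and 146, 138 and 125 CPM in IFNAR;RelBko cells, with -1.69 ± 0.16 (SE, adjusted p = 3.79e-05). Il1b was at 52.7, 607 and 506 CPM against 23.4, 253 and 264 CPM, with -1.11 ± 0.19 (SE, adjusted p = 0.00225). In the controls Tnf was at 14.3 CPM against 8.21 CPM and Il1b at 12.7 CPM against 6.11 CPM. The groups did not overlap for Tnf and overlapped for Il1b, whose 1 h values were far below the later ones in both. Ptgs2, the inducible cyclooxygenase, was at 21.1, 305 and 183 CPM against 2.90, 10.2 and 11.8 CPM, with -3.71 ± 0.61 (SE, adjusted p = 0.00474), and the call was lost without the 3 h or the 8 h libraries. Il18bp, a decoy receptor for interleukin-18, was at 36.5, 40.6 and 55.9 CPM against 16.3, 17.8 and 21.2 CPM, with -1.21 ± 0.09 (SE, adjusted p = 4.09e-06). The groups overlapped for neither Ptgs2 nor Il18bp. Il1rn, the antagonist of the interleukin-1 receptor, was at 73.9, 344 and 573 CPM against 54.9, 57.9 and 93.3 CPM, with a late change of -2.09 ± 0.15 (SE, adjusted p = 1.13e-06).

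Other cytokines did not pass the test of the mean difference. Il6 was at 66.7, 395 and 316 CPM in RelBko and 55.3, 100.2 and 94.1 CPM in IFNAR;RelBko cells, with -1.32 ± 0.46 (SE, adjusted p = 0.0662). The late change of Il6, -1.93 ± 0.32 (SE, adjusted p = 0.0177), passed, but not without the 3 h or the 8 h libraries or the IFNAR;RelBko 8 h library. Il12b, the p40 chain of interleukin-12, was at 63.5, 892 and 1302 CPM against 75.2, 834 and 359.9 CPM, nearly level at 1 and 3 h and apart at 8 h, with -0.57 ± 0.63 (SE, adjusted p = 0.502). Il15, which supports natural killer cells, was at 11.0, 25.2 and 45.7 CPM against 15.6, 25.4 and 20.4 CPM (-0.21, adjusted p = 0.670). Il10 was at 1.28, 1.61 and 1.95 CPM against 0.725, 0.529 and 1.05 CPM and was not tested at these levels.

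Of 19 tested chemokines, 9 were lower and 2 higher (background 8.79% lower and 27.4% higher). At 5 CPM in both groups were 17 of the 19, 7 lower and 2 higher, and Cxcl10 was not among them. Median-ratio scaling called 10 lower and 0 higher. The neutrophil attractant Cxcl2 was at 89.1, 534 and 335 CPM in RelBko and 31.4, 102 and 74.7 CPM in IFNAR;RelBko cells, with -2.00 ± 0.28 (SE, adjusted p = 0.00138). Cxcl10, an attractant of activated T cells, was at 11.7, 77.6 and 22 CPM against 3.83, 6.18 and 2.62 CPM, with -2.50 ± 0.46 (SE, adjusted p = 0.00508). These Cxcl10 values did not overlap, and its call was lost without the 3 h or the 8 h libraries. Ccl3, an attractant of monocytes, was at 78.8, 742 and 504 CPM against 29.2, 216 and 188 CPM, with -1.53 ± 0.19 (SE, adjusted p = 3.85e-04). The 2 higher chemokines, Ccl22 and Ccl5, were abundant. Ccl22, a ligand of CCR4, was at 9504, 15309 and 22398 CPM against 14611, 22199 and 26184 CPM (0.46, adjusted p = 0.00862), and Ccl5, an attractant of T cells, at 692, 1169.8 and 2587 CPM against 1185, 1862 and 2669 CPM (0.50, adjusted p = 0.00970). The calls of both were lost with median-ratio or TMM scaling and without the 3 h libraries, and that of Ccl5 also without the 1 h libraries. Cxcl9 was at 1.63, 15.9 and 9.74 CPM against 2.49, 5.82 and 6.82 CPM and did not pass (-0.45, adjusted p = 0.277).

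Of 11 tested genes of nitric oxide, arginine and itaconate metabolism, 8 were lower and 2 higher (background 8.79% lower and 27.4% higher). At 5 CPM in both groups were 9 of the 11, 7 lower and 1 higher. Nos2, the inducible nitric oxide synthase, was at 467, 1122 and 1971 CPM in RelBko and 110.1, 236 and 204 CPM in IFNAR;RelBko cells, with -2.53 ± 0.21 (SE, adjusted p = 5.12e-05). Its difference in the control libraries was -2.14. Irg1, the enzyme that makes itaconate, was at 288, 1966 and 2276 CPM against 166, 821 and 763 CPM, with -1.21 ± 0.19 (SE, adjusted p = 0.00115). Arg1, which competes with Nos2 for arginine, was at 2304, 1259 and 570.4 CPM against 969.9, 508 and 333 CPM, with -1.11 ± 0.12 (SE, adjusted p = 3.45e-05). The groups did not overlap for Nos2 and overlapped for Irg1 and Arg1, whose levels moved strongly with time.

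**Figure D4:**
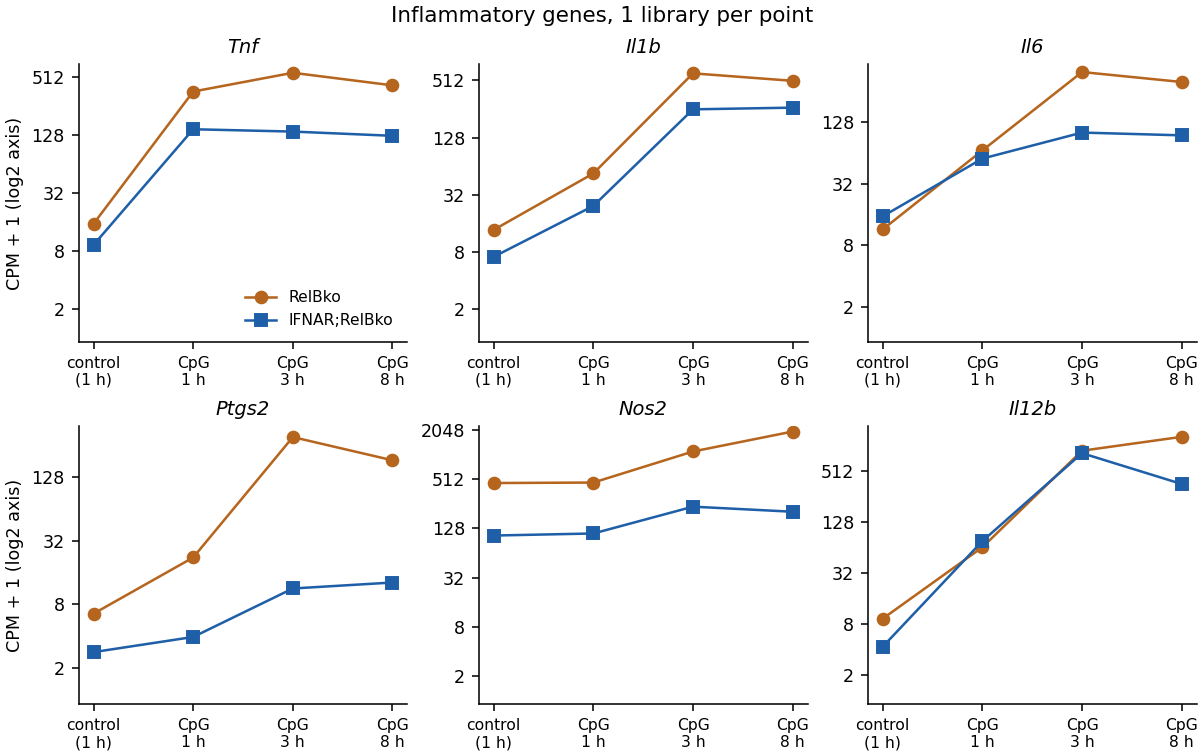
Levels of 6 inflammatory genes (vertical axes, CPM + 1 on a log2 axis) in the control library and at 1, 3 and 8 h after CpG (horizontal axes), with 1 library per point, RelBko as circles and IFNAR;RelBko as squares. Tnf, Il1b and Ptgs2 climbed in both genotypes to lower levels in IFNAR;RelBko, Nos2 was apart in the controls already, and Il12b stood at 892 and 834 CPM at 3 h.

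Calls among NF-kB genes depended on scaling. Of 26 tested subunits and feedback genes, 5 were lower and 3 higher (background 8.79% lower and 27.4% higher), with a median of -0.10. Median-ratio scaling called 12 lower and 1 higher, against 1475 lower and 1081 higher of all 9564 genes. Nfkb2, the partner of RelB, was at 257, 482 and 461 CPM in RelBko and 236, 489 and 404 CPM in IFNAR;RelBko cells (-0.10, adjusted p = 0.457). Cyld, a deubiquitinase that restrains NF-kB, was at 76.9, 82.1 and 103 CPM against 126, 122 and 134 CPM (0.55, adjusted p = 0.00152), with every IFNAR;RelBko value the higher. Of 27 tested genes of cell death and the inflammasome, 4 were lower and 0 higher, against the shares of 8.79% and 27.4%. With median-ratio scaling 8 were lower, against its own counts over all genes. Nlrp3, the sensor of the best studied inflammasome, was at 110.5, 225 and 126 CPM against 58.2, 105 and 74.7 CPM (-0.92, adjusted p = 4.07e-04). Casp4, listed for mouse caspase-11, which binds lipopolysaccharide in the cytosol, was at 43.5, 67.8 and 78.6 CPM against 28.1, 37.8 and 30.7 CPM (-0.92, adjusted p = 9.13e-04). The groups overlapped for neither.

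Dendritic cell maturation genes went both ways. Of 32 tested, 10 were higher and 4 lower, close to the background of 27.4% and 8.79%, and median-ratio scaling called 4 higher and 4 lower. Fscn1, an actin-bundling protein of mature dendritic cells, was at 169, 815 and 897 CPM in RelBko and 449, 2552 and 1624 CPM in IFNAR;RelBko cells, with 1.30 ± 0.15 (SE, adjusted p = 9.24e-05). Cd86, a co-stimulatory ligand, was at 194, 296 and 266 CPM against 273, 514 and 296 CPM, with 0.48 ± 0.15 (SE, adjusted p = 0.0276). Cd274, which encodes the inhibitory ligand PD-L1, was at 463, 834 and 867 CPM against 451, 427 and 418 CPM, with -0.68 ± 0.22 (SE, adjusted p = 0.0365). The call of Cd86 was lost with median-ratio or TMM scaling and without the 1 h or the 3 h libraries, and that of Cd274 without the 3 h or the 8 h libraries or either of the IFNAR;RelBko and IFNAR 8 h libraries. Cd40, the receptor for CD40 ligand, was at 68.6, 545 and 532 CPM against 65.8, 619 and 291 CPM and Ccr7, the lymph-node homing receptor, at 1156, 1070.2 and 1901 CPM against 1446, 1417 and 1862 CPM, and neither passed (differences -0.25 and 0.23, adjusted p = 0.588 and 0.112).

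Glycolysis genes were lower in part. Of 22 tested genes of glycolysis and hypoxia, 12 were lower and 0 higher (background 8.79% lower and 27.4% higher). The list's median difference was -0.33, and 17 were lower with median-ratio scaling. Slc2a1, a glucose transporter, was at 112, 199 and 188 CPM in RelBko and 47.4, 75.5 and 97.8 CPM in IFNAR;RelBko cells, with -1.18 ± 0.18 (SE, adjusted p = 9.24e-04). Hk3, a hexokinase of myeloid cells, was at 273, 266 and 330.3 CPM against 164, 141 and 164 CPM, with -0.88 ± 0.08 (SE, adjusted p = 7.79e-06). Hif1a, the oxygen-regulated factor that drives many of these genes, was at 334, 426 and 328 CPM against 243, 269.8 and 243 CPM, with -0.51 ± 0.09 (SE, adjusted p = 0.00121). The groups did not overlap for any of the 3. The list's median was -0.36 in the control already. Of 17 tested genes that IL-4 induces in myeloid cells, 7 were lower and 4 higher (background 8.79% lower and 27.4% higher). At 5 CPM in both groups were 16 of the 17, 6 lower and 4 higher. Chil3, a chitinase-like protein, was at 15393, 13285 and 9408 CPM against 9229, 7585 and 5676 CPM (-0.76, adjusted p = 1.22e-05). Alox15, a lipoxygenase, was at 38.6, 24.5 and 7.64 CPM against 63.7, 51.5 and 45.1 CPM (1.39, adjusted p = 0.0134), a call that was lost without the 3 h libraries. Of 23 tested genes of cholesterol synthesis and efflux, 1 was lower and 3 were higher, and median-ratio scaling turned this to 3 lower and 1 higher.

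Cell-cycle genes were higher in IFNAR;RelBko cells. All 38 genes of the proliferation list were tested, and 35 were higher and 0 lower (background 27.4% and 8.79%), with a median of 1.82 and 1.65 under median-ratio scaling. Top2a, the topoisomerase of dividing cells, was at 38.2, 34.0 and 21.7 CPM in RelBko and 184, 169.9 and 161 CPM in IFNAR;RelBko cells, with 2.45 ± 0.14 (SE, adjusted p = 8.29e-07). Cenpf, a kinetochore protein, was at 4.08, 1.79 and 0.749 CPM against 25.7, 25.2 and 17.8 CPM, with 3.02 ± 0.25 (SE, adjusted p = 5.51e-06). Ccna2, the S and G2 phase cyclin, was at 14.8, 6.44 and 5.24 CPM against 56.2, 61.4 and 48.0 CPM, with 2.63 ± 0.30 (SE, adjusted p = 1.80e-04). In all 3 every IFNAR;RelBko value lay above every RelBko value, as in 23.7% of all genes tested. The RelBko values of the 3 were lowest at 8 h. Plk1, Kif11, Kif23 and Kif20a, a kinase and motor proteins of mitosis, were among the 15 largest increases as well, with estimates of 2.61, 2.56, 2.48 and 2.44. The list was apart before stimulation, with a median of 1.47 in the control, and 7 of its genes were called higher in the late test. Of the 38, 9 had a mean under 5 CPM in RelBko cells and were tested because of their IFNAR;RelBko level. Among the other 29, 26 were higher.

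Markers of other cell types moved with the genotype. In bulk samples fewer cells of a type and less RNA per cell cannot be told apart. Of 17 neutrophil genes, 11 were tested, 5 lower and 4 higher, of which 6 were at 5 CPM in both groups, 2 lower and 2 higher. The list's summed level was 413 to 537 CPM over the RelBko and 201 to 423 CPM over the IFNAR;RelBko CpG libraries. S100a9, a calcium-binding protein of neutrophils and monocytes, was at 141, 131 and 71.2 CPM in RelBko and 3.42, 2.82 and 3.15 CPM in IFNAR;RelBko cells, with -4.74 ± 0.25 (SE, adjusted p = 2.24e-06). S100a8, its partner, was at 93.7, 97.3 and 90.5 CPM against 3.63, 6.18 and 6.29 CPM, with -3.93 ± 0.24 (SE, adjusted p = 5.51e-06). Ngp, a protein of neutrophil granules, was at 45.0, 36.5 and 17.1 CPM against 0.207, 0.353 and 0.786 CPM, with -4.46 ± 0.36 (SE, adjusted p = 2.14e-05). The groups did not overlap for any of these 3. Mpo and Ctsg, genes of early granules, were higher. Mpo, myeloperoxidase, was at 1.75, 1.07 and 0.449 CPM against 16.3, 11.5 and 13.1 CPM (2.84, adjusted p = 4.09e-06), and Ctsg, cathepsin G, at 1.17, 0.894 and 0.300 CPM against 11.1, 10.1 and 9.96 CPM (2.70, adjusted p = 5.51e-06). Retnlg, a resistin-like protein of myeloid cells, was at 14.7, 9.83 and 6.14 CPM against 78.8, 85.9 and 105 CPM (3.08, adjusted p = 1.94e-05). Ly6g, a defining neutrophil marker, was at 1.28, 1.07 and 0.899 CPM against 0.518, 0 and 0 CPM. The part of these cells in the results above was not tested.

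Of 20 genes of mast cells, basophils and eosinophils 7 were tested, 6 higher and 1 lower, but 5 of the 7 were under 5 CPM in RelBko and were tested because of their IFNAR;RelBko level. The list had summed levels of 58.1 to 143 CPM over RelBko and 134 to 194 CPM over IFNAR;RelBko libraries. Cpa3, a mast cell protease, was at 1.75, 0.715 and 0.300 CPM in RelBko and 18.5, 16.2 and 15.2 CPM in IFNAR;RelBko cells, with 3.27 ± 0.23 (SE, adjusted p = 2.24e-06). Prss34, a basophil protease, was at 2.68, 3.40 and 1.20 CPM against 24.0, 21.0 and 19.9 CPM, with 2.78 ± 0.23 (SE, adjusted p = 5.92e-06). Mcpt2 was at 0 CPM in both groups and the tryptases Tpsb2 and Tpsab1 were at 0 CPM in RelBko. The groups overlapped for neither protease. The fibroblast collagens Col1a1 and Col1a2 had 5 reads each over the 3 RelBko libraries. Col1a2 was at 0.350, 0.358 and 0 CPM in RelBko and 12.4, 14.5 and 19.1 CPM in IFNAR;RelBko cells, with 3.72 ± 0.26 (SE, adjusted p = 1.73e-06). The reads of Col1a2, 5 against 275, give a ratio of 59.9 with a 95% interval of 25.4 to 186 for counting error only. Ctgf, a matrix-associated growth factor, was at 0.117, 0.179 and 0.599 CPM against 9.22, 12.4 and 15.7 CPM, with 3.36 ± 0.26 (SE, adjusted p = 3.53e-06). Dcn and Lum, other fibroblast genes, were at 0 CPM in all 3 RelBko CpG libraries, and in IFNAR;RelBko cells Dcn was at 2.80, 3.00 and 2.88 CPM and Lum at 0.518, 0.882 and 0 CPM. The summed level of the 15 stromal and endothelial genes was 37.5 to 104 CPM over RelBko and 90.7 to 116 CPM over IFNAR;RelBko libraries, and 3 of them were tested, 2 higher and 0 lower, both under 5 CPM in RelBko. The part of these cells in the results was not tested either.

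Of 26 macrophage and monocyte markers, 22 were tested, 15 lower and 4 higher (background 8.79% lower and 27.4% higher). At 5 CPM in both groups were 20 of the 22, 13 lower and 4 higher, and Mertk was not among them. The list's summed levels were 2451 to 3599 CPM over RelBko and 2308 to 3472 CPM over IFNAR;RelBko libraries. Mertk, a receptor for dying cells, was at 15.4, 18.2 and 18.9 CPM against 1.76, 4.06 and 1.57 CPM (-2.48, adjusted p = 1.58e-05), and Lyz2, lysozyme, at 467, 526 and 499 CPM against 688, 1050.4 and 1594 CPM (1.08, adjusted p = 0.0183, lost without the 3 h libraries). Cd163, a scavenger receptor of resident macrophages, was at 0 CPM in RelBko. Of 24 T and NK cell markers, 10 were tested, 6 lower and 0 higher (same background), with summed levels of 370.5 to 489 and 219 to 309 CPM. At 5 CPM in both groups were 8 of the 10, 4 lower and 0 higher. Gzma, a granzyme, was at 68.5, 50.4 and 30.3 CPM in RelBko and 13.3, 10.2 and 5.50 CPM in IFNAR;RelBko cells, with -2.25 ± 0.10 (SE, adjusted p = 6.01e-08). Summed levels over RelBko and IFNAR;RelBko libraries were 3349 to 4929 and 3004 to 4229 CPM for conventional dendritic cell markers, 171 to 187 and 191 to 252 CPM for plasmacytoid dendritic cell markers, 36.5 to 44.5 and 54.0 to 56.4 CPM for B cell markers, and 153 to 252 and 204 to 267 CPM for erythroid and megakaryocyte markers. The conventional dendritic cell list had 12 genes tested, 4 higher and 1 lower (2 and 3 with median-ratio scaling). These shares were near the background of 27.4% higher and 8.79% lower. Flt3, a growth factor receptor of dendritic cell progenitors, was among the higher, at 7.81, 6.26 and 4.94 CPM against 13.5, 13.4 and 18.9 CPM (1.15, adjusted p = 0.00115). Siglech, which defines plasmacytoid dendritic cells, was at 0.117, 0 and 0 CPM against 0, 0.176 and 0 CPM. The globin genes Hba-a1 and Hba-a2 were at 0 CPM in both groups.

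The same receptor loss in cells with RelB was measured by IFNAR against WT libraries after CpG. These share no library with the groups above, though the fit takes 1 estimate of the spread from all 12. The difference between the 2 differences was called for 651 genes (6.81%), 286 more positive (2.99%) and 365 more negative (3.82%) in the RelB-null background. Among the 83 antiviral effectors, 10 were called more negative and 1 more positive. Rsad2 had a mean difference of -5.67 without RelB and -3.70 with RelB, and the change between them of -1.97 ± 1.82 (SE, adjusted p = 0.629) did not pass. Irf7 had -4.18 and -3.75, with a change of -0.43 ± 1.40 (SE, adjusted p = 0.903). Ifi27l2a was lower by more in the RelB-null cells, -4.94 against -2.50, and this change of -2.44 ± 0.48 (SE, adjusted p = 0.0183) passed, but not without the 1 h or the 3 h libraries. Tnf was at 300.4, 320.4 and 316 CPM in IFNAR and 339.9, 656 and 431 CPM in WT cells, and its change of -1.14 ± 0.23 (SE, adjusted p = 0.0136) passed. Cxcl9 was at 26.2, 60.2 and 56.0 CPM in IFNAR and 2.16, 17.5 and 15.0 CPM in WT cells, with a mean difference of 2.22, and its change was -2.67 ± 0.45 (SE, adjusted p = 0.00550). The calls of Tnf and Cxcl9 were lost without the 8 h libraries.

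Among the lists, the GTPases had 8 of 17 genes called more negative and 0 more positive, MHC class I had 9 of 25 and 1, MHC class II had 8 of 13 and 0, and the proliferation list had 0 of 38 called in either direction. Some of these genes had opposite signs with and without RelB. Gbp4, Iigp1 and H2-Aa had mean differences of 1.13, 0.38 and 0.18 with RelB and -2.43, -3.40 and -0.64 without RelB. With RelB, Gbp4 differed by 1.39, 0.96 and 1.04 at 1, 3 and 8 h. Iigp1 differed by 1.16, 0.40 and -0.44 and H2-Aa by -0.02, 0.12 and 0.42, so their sign was not the same at all times. H2-Q7 was lower in both, with -0.38 and -1.79. The interferon genes summed to 17.0 to 29.9 CPM in the IFNAR and 2.32 to 3.55 CPM in the WT CpG libraries, and in both groups only Ifnb1 and Ifng, which encodes interferon-gamma, had a read. The part of this level in the changes of the GTPases, the MHC genes and Cxcl9 was not tested. Top2a differed by 2.45 without RelB and 2.68 with RelB, a change of -0.22 ± 0.20 (SE, adjusted p = 0.595). Among the largest departures were markers of other cell types. S100a9 was at 79.6, 62.8 and 25.1 CPM in IFNAR and 48.4, 38.0 and 19.9 CPM in WT cells, a mean difference of 0.58 against -4.74 without RelB, and the change was -5.32 ± 0.35 (SE, adjusted p = 9.65e-06). Gzma was at 378, 307 and 177 CPM in IFNAR and 92.3, 66.6 and 31.8 CPM in WT cells, so that Gzma was higher without the receptor in RelB-intact cells and lower in RelB-null cells, with a change of -4.47 ± 0.14 (SE, adjusted p = 7.68e-10). Cyp1b1, a monooxygenase that metabolises steroids and arachidonic acid, was at 0.274, 0.116 and 0 CPM in IFNAR and 20.0, 19.2 and 55.1 CPM in WT cells against 9.32, 9.88 and 8.13 CPM in IFNAR;RelBko and 3.85, 2.15 and 4.34 CPM in RelBko cells, with a change of 5.90 ± 0.45 (SE, adjusted p = 8.07e-06). The T and NK cell list summed to 1147 to 1480 CPM in IFNAR and 393 to 498 CPM in WT CpG libraries, and its part in these changes was not tested.

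The sex-linked transcripts ran the other way in this pair: Xist was at 445 to 749 CPM in the 4 WT and 0 to 0.412 CPM in the 4 IFNAR libraries, and the Y genes at 0 to 0.430 and 221 to 248.7 CPM. Sex-linked transcripts and receptor loss thus go together in opposite directions in the 2 backgrounds and cannot be told apart in this test. The mean differences of Rsad2, Irf7 and Top2a had the same sign in both pairs, and those of S100a9, Gzma and Gbp4 had opposite signs. The part of the sex-linked difference in these signs was not tested. Without the 3 h libraries 109 genes were called. Of the 16 genes named for this test, Serpinb2 or Lox, or both, lost their call without the 1 h, the 3 h, the 8 h, the IFNAR 8 h or the IFNAR;RelBko 8 h libraries, and Ngp lost it without the 3 h libraries. With voom on the recovered reads Ctgf, Col1a1, Serpinb2 and Lox lost it.

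**Figure D5:**
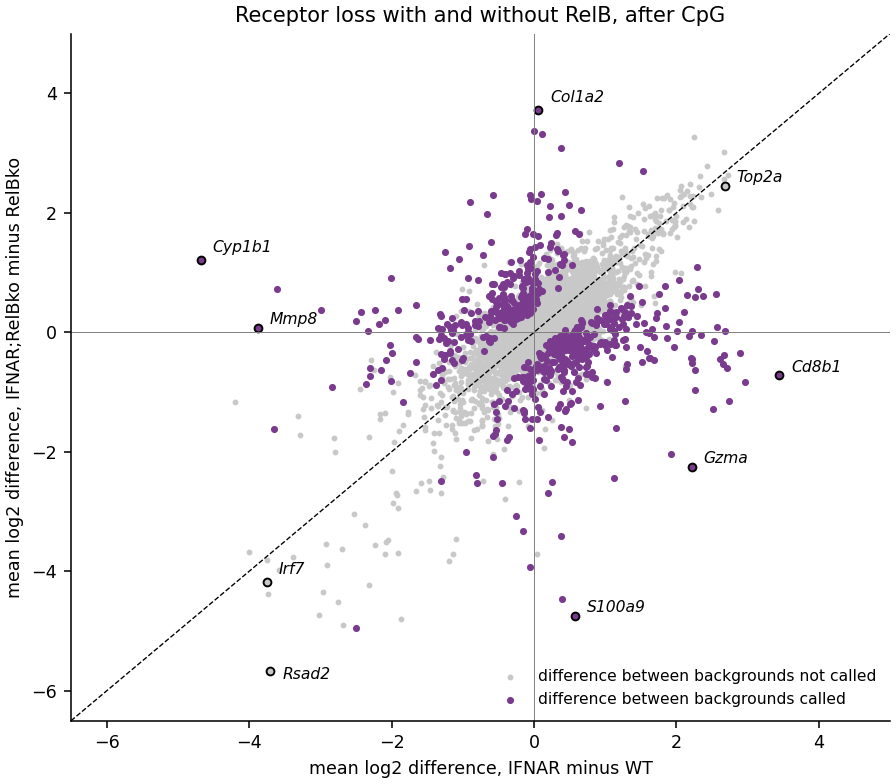
Mean log2 difference over 1, 3 and 8 h after CpG for receptor loss with RelB (IFNAR minus WT, horizontal axis) and without RelB (IFNAR;RelBko minus RelBko, vertical axis) for 9564 genes, with the 651 genes whose 2 differences were called unequal in dark and the diagonal dashed. Rsad2 and Top2a were not called, while S100a9, Gzma, Cd8b1, Col1a2, Cyp1b1 and Mmp8 were.

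After Poly(I:C), a mimic of double-stranded RNA sensed by TLR3 and cytosolic receptors, the IFNAR;RelBko and RelBko libraries gave 3 more pairs, with no library in common with those above. By limma, 0 genes (0%) had a difference under CpG that departed from that under Poly(I:C), with 196 genes at an unadjusted p under 0.05, 2.05% of those tested, and 0 genes with voom on recovered reads. Rsad2 differed by -5.67 with CpG and by -5.41 with Poly(I:C), with a change of -0.26 ± 1.68 (SE, adjusted p = 0.9998). Top2a differed by 2.45 and 2.37, and S100a9 by -4.74 and -4.62. Ptgs2 differed by -3.71 with CpG and by -1.43 with Poly(I:C), and Il6 by -1.32 and -0.29. Neither change passed (adjusted p = 0.9998 for both). The test does not show that the stimuli act alike.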

How the data were processed

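Stranded mRNA libraries made from mouse dendritic cells of bone marrow were read as single ends of 50 bases, per the labels' protocols. The sharing of sequencing runs, the aligner, the counting tool with its strand setting, and the annotation are not given in the sources used here. For each stimulus the authors deposited a sheet of normalised values. Trimming with cutadapt, edgeR and build mm10 are named in the submitters' processing notes, where no version stands. The deposited signal values equal CPM (read counts per total) plus 1. Less 1 and divided by the value of 1 read, 100% came within 0.001 of a whole read. Of the 27178 rows of the CpG sheet, 2161 had no gene name and stayed out of all tests.

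Groups follow the labels, with 1 library per genotype, stimulus and time. Of 9879 genes at a mean of 5 CPM, 290 on chromosomes X and Y and 25 with no chromosome in GENCODE M21 or RefSeq were left out. The test was limma 3.58.1 in R 4.3.3, with trend and robust options and two-sided Benjamini-Hochberg adjusted p-values called under 0.05. It ran on log2 of the deposited value, that is with a pseudocount of 1, which understates changes of genes near 0. Genotype and time were terms over the 12 CpG libraries. The late test used 4 control and 12 CpG libraries with a genotype by late state term, and the Poly(I:C) test 24 libraries with a genotype by stimulus term. Each fit was tested on simulated data. Depth over the 28 libraries ran from 3269933 to 42227938 reads, and 1 read of the IFNAR;RelBko 8 h library is worth 0.262 CPM. Intervals (exact binomial, 95%) and floors cover counting error only. The planned count test was not run, because the added 1 keeps the deposited values from passing as counts. Voom on recovered reads was added after seeing the data.

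Named genes are the 15 largest called decreases and increases with the same sign at all 3 times in the main comparison, the 8 largest each way in the others, up to 5 members of a list with the lowest adjusted p, and a set of 20 interferon and dendritic cell genes. A member of that set is not reported here. Apobec3, Ifitm3, Ifi44, Pyhin1, Il1rn, Ccl22, Cd274, Alox15, Lyz2, Ifnar2, Itgax and single markers given at or near 0 CPM lie outside this rule. They were chosen after their values were seen. The genes and lists were chosen with earlier results of these data known.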

Additional observations from a re-analysis of the deposited data

Results flagged for a closer look

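Some differences between IFNAR;RelBko and RelBko cells were themselves unequal between times or between backgrounds, by a limma test of the difference itself. The values are log2 changes of the difference.

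The difference was more negative at 3 and 8 h than in the control and at 1 h for Rsad2 (-4.56), Ifit1 (-3.65), Ifit2 (-4.45), Cmpk2 (-4.89), Mx2 (-3.68), Gm4951 (-3.52), Ifi205 (-2.82) and Gm12250 (-2.72). It was more positive late for Ffar2 (2.12), Cdc25b (1.67), Itgb5 (1.61), Ccnb2 (1.50), I830077J02Rik (1.44), E2f2 (1.37), Abcd2 (1.36) and Cnr2 (1.35). Most of the genes of the first group are interferon-stimulated, and Ccnb2, Cdc25b and E2f2 of the second act in the cell cycle. With voom on the recovered reads the calls of Rsad2, Ifit1, Ifit2, Gm4951, Ifi205 and Ccnb2 were lost.

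The difference was more negative in RelB-null than in RelB-intact cells for S100a9 (-5.32), Ngp (-4.85), S100a8 (-3.87), Gzma (-4.47), Cd8b1 (-4.16), Gzmg (-3.96), Gzmc (-3.88) and Gzmb (-3.80). It was more positive in RelB-null cells for Col1a2 (3.66), Ctgf (3.37), Col1a1 (3.20), Cyp1b1 (5.90), Serpinb2 (4.34), Mmp8 (3.95), Spint1 (3.37) and Lox (3.09). The first group holds granzymes, a T cell co-receptor and neutrophil proteins, and the second holds matrix genes and proteases or their inhibitors. Sex-linked transcripts differ within both genotype pairs, and their part was not tested. With voom on the recovered reads the calls of Ctgf, Col1a1, Serpinb2 and Lox were lost.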

How the results depend on the processing

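The IFNAR;RelBko against RelBko count of 3459 ranged from 1041 (without 3 h) to 3079 (without 1 h) when the libraries of 1 time were left out, was 2293 without the IFNAR;RelBko 8 h library and 641 with no time term. With pseudocounts of 0.25 and 5, other filters, other scalings, plain eBayes, the 6 libraries alone, sex-linked genes kept, the IFNAR 8 h library left out, or voom, it stayed within 1.5 times. The late-change count of 252 ranged from 8 (without 1 h) to 2233 (without 3 h); it was 113 with no filter, 128 with plain eBayes, 149 with the 2 genotypes alone and 119 without the IFNAR;RelBko 8 h library. Its split of 127 higher and 125 lower became 66 and 159 with TMM scaling and 78 and 144 with median-ratio scaling. The count of 651 between backgrounds was 985 with a filter of 1 CPM in 3 libraries and 66 with no time term, and ranged from 109 (without 3 h) to 576 (without 8 h). The Poly(I:C) count of 0 ranged from 0 to 2 (without 1 h). For most of these settings the cause was not tested; fewer libraries leave fewer degrees of freedom. Of 3815 values of named genes under the alternatives, 3434 kept their direction and side of the threshold, 351 lost and 30 gained a call, and 0 called genes changed direction. The 5 CPM filter in each of the 6 libraries leaves out 14 of the 15 largest decreases and 12 of the 15 largest increases, so it says nothing of them. The planned quasi-likelihood count test was not run. The labels give each group 1 library and no replicate number, so libraries could not be paired by animal or culture. The pairs were matched by time, which was a term of the fit. Values near 0 CPM rest on few reads, above all in the IFNAR;RelBko 8 h library.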

Other observations

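Some genes of the marker lists differed in directions of their own between the 3 RelBko and the 3 IFNAR;RelBko libraries after CpG, given here as levels at 1, 3 and 8 h with RelBko first. Cd5l, a secreted protein of tissue macrophages, was at 7.46, 12.5 and 10.3 CPM against 1.24, 1.94 and 1.57 CPM, a log2 difference of -2.08 ± 0.17 (SE, adjusted p = 5.51e-06) by limma. Ly6c2, the surface marker of inflammatory monocytes, was at 44.7, 54.4 and 95.9 CPM against 17.7, 17.1 and 24.6 CPM, with -1.61 ± 0.17 (SE, adjusted p = 3.03e-05). Clu, a secreted chaperone, was at 3.38, 5.18 and 11.4 CPM against 23.7, 35.1 and 44.0 CPM, with 2.30 ± 0.16 (SE, adjusted p = 1.70e-06). The groups did not overlap for any of these. Cd5l had a mean under 5 CPM in IFNAR;RelBko cells and was tested because of its RelBko level.

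A few genes of other blood lineages were called higher without the receptor. Gata2, a transcription factor of stem cells and mast cells, was at 2.68, 0.894 and 0.599 CPM against 10.5, 9.35 and 9.44 CPM, with 2.27 ± 0.26 (SE, adjusted p = 3.79e-05). Ccr3, the eotaxin receptor, was at 4.54, 5.90 and 4.04 CPM against 26.0, 24.2 and 32.8 CPM, with 2.30 ± 0.21 (SE, adjusted p = 9.63e-06). Itga2b, an integrin of megakaryocytes and their progenitors, was at 2.56, 2.15 and 2.25 CPM against 11.5, 9.88 and 9.44 CPM, with 1.76 ± 0.19 (SE, adjusted p = 2.52e-05). Ighm, the heavy chain of immunoglobulin M, was at 31.0, 23.4 and 28.8 CPM against 48.6, 41.6 and 50.6 CPM, with 0.74 ± 0.14 (SE, adjusted p = 0.00175). Every IFNAR;RelBko value of these 4 genes was the higher, as in 23.7% of all genes tested. Gata2, Ccr3 and Itga2b had a mean under 5 CPM in RelBko cells and were tested because of their IFNAR;RelBko level.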
